A study of Mus musculus with 4 samples.

Results

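The type I interferon response genes described here are 34 genes that cells switch on after type I interferon, taken as a list of symbols and grouped by role into sensors, transcription factors, antiviral effectors, modifiers of the ISG15 type and other induced genes. Of the 34, 33 matched a row by symbol in the gene files, which hold 27998 genes, and Mx2 did not, so every sum below is over 33 members. The members were chosen with earlier results of these data known. All 33 had at least 1 unique molecular identifier (UMI, a tag that counts 1 captured RNA molecule) in the Sca+ control, the Sca+ knockout and the Sca- control library, and 32 had one in the Sca- knockout library.

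Type I interferons are secreted proteins, the interferon alphas and interferon beta, that cells make when sensors detect viral or misplaced nucleic acid. They bind a receptor built from IFNAR1 and IFNAR2, whose kinases JAK1 and TYK2 phosphorylate STAT2 among others; STAT2 joins IRF9 and enters the nucleus, where the complex binds interferon-stimulated response elements in front of its target genes. Bone marrow cells are known to differ in this respect, since plasmacytoid dendritic cells are specialised producers of type I interferon and blood stem cells keep a set of target genes on without infection.

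The libraries were 10x Genomics single-cell RNA libraries of mouse cells sorted by flow cytometry as Lineage-, CD31+, VECadherin+ and Endomucin+, and split into a Sca+ gate labelled H vessel (called Sca-1-positive in the plots) and a Sca- gate labelled sinusoidal. Each gate had 1 control and 1 knockout library. All 4 groups carried CDH5-CreER, a tamoxifen-dependent Cre recombinase under the promoter of an endothelial cadherin, and were given tamoxifen intraperitoneally on 5 days in a row. The control was ID1 +/+ ID3+/-, so it too lacked 1 copy of Id3, and the knockout was ID1 -/- ID3-/-. How many mice were pooled, and their age and strain, the labels do not say. Id1 and Id3 are inhibitors of helix-loop-helix transcription factors.

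The files held 3641 barcodes, against the 20000 sorted cells named in the design text, and 3567 cells passed the filters: 806 and 1857 in the Sca+ control and knockout, and 351 and 553 in the Sca- control and knockout. Median depth was 6420, 5597, 6142 and 15428 UMIs per cell in that order, and 4 barcodes occurred in 2 libraries. Of 15 markers of endothelium, the labelled cell type, 7 had a UMI in 36 cells or fewer: Cdh5, which encodes VE-cadherin, in 28 cells (0.785%), Flt1 in 36, Kdr in 33, Plvap in 5, Flt4 in 4 and Stab2 and Ptprb in 3 each. The other 8, several of which blood stem cells are also known to express, ran from Cldn5 in 3.03% and Tek in 4.49% of cells to Eng in 32.5% and Egfl7 in 39.4%. The blood cell gene Ptprc had a UMI in 47.2% of cells. The endothelial list was the second best match of the progenitor-like clusters and of cluster 9, which stayed unnamed: Cldn5 had a UMI in 41.2% of its 148 cells and Cdh5 in 0. Cells of the 17 named clusters are called by the blood cell class their cluster resembles. Id3 did not follow the labels, at 33 CPM (UMIs scaled to a total of 1000000) in the control and 84.9 in the knockout of the Sca+ gate, and 54.7 and 84.8 in the Sca- gate. Id1 was at 4.08 and 2.99 CPM in the Sca+ gate and at 26.1 and 26.3 CPM in the Sca- gate. Reads taken near the 3′ end may lie outside a deleted part, so these levels may check nothing. Each group is accordingly written as the library labelled control or labelled knockout. With 1 library per group there is no test between groups: intervals are 95% and exact, and cover counting error only.

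The promoter stretches of 4 members whose UMIs lay mostly in the same few cells, as described further on, are shown because they share a short element. Each is the 250 bases before the RefSeq transcription start on GRCm38.p6, written 5′ to 3′ on the gene's strand. Capitals mark every stretch that reads GAAANNGAAA or, on the other strand, TTTCNNTTTC, the core of an interferon-stimulated response element, and overlapping matches run together. The windows are chr19:34640639-34640888 on the plus strand for Ifit1, chr19:34583279-34583528 on the plus strand for Ifit3, chr4:156200819-156201068 on the minus strand for Isg15 and chr12:26456453-26456702 on the minus strand for Rsad2.
Ifit1: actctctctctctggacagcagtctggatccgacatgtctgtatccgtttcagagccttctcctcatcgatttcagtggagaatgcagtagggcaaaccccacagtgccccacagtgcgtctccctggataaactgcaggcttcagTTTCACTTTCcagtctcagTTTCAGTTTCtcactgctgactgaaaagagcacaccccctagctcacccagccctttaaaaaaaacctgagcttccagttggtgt
Ifit3: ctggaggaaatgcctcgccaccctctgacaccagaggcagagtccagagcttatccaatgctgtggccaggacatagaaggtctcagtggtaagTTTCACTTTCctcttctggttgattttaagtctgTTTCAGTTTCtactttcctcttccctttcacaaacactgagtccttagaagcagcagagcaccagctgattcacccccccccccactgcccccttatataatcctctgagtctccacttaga
Isg15: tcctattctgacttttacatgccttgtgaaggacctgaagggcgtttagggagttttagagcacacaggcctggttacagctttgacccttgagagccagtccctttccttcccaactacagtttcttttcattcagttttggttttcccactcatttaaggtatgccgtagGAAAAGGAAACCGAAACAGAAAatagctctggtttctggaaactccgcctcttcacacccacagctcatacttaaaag
Rsad2: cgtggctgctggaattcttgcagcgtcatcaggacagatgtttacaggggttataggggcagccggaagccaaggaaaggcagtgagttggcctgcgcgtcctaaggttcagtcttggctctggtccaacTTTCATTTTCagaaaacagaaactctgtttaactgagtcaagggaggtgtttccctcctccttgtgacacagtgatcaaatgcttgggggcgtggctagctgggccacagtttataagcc

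Ifit1 had matches that begin 104 and 85 bases before the start, Ifit3 156 and 122, Isg15 78, 72 and 66, which overlap, and Rsad2 120. Of the 34 members 23 had a RefSeq window, and 10 of these (43.5%) held a match, against 3.46% of the 27025 genes with a window. Among further type I targets, a second list of 48 genes, 17 of 42 with a window (40.5%) held one. The 10 were Stat2, Ifit1, Ifit3, Oas1a, Oas3, Rsad2, Bst2, Isg15, Trim30a and Ifi203. A match is a run of letters, not a site shown to be bound. Ifit2, whose UMIs lay in the same few cells as those of Ifit1 and Ifit3, had none in its windows. Dhx58, Zbp1, Oas2, Mx1, Mx2, Usp18, Parp9, Parp14, Ifi27l2a, Ifi204 and Rtp4 have no window here.

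The summed level of the members differed widely between cell classes. UMIs count molecules, so levels are not divided by gene length. Their sum was highest in plasmacytoid dendritic cell-like cells, at 7512 CPM (7048 to 7997, 25 cells) in the Sca+ control, 7876 (7341 to 8439, 25 cells) in the Sca+ knockout, 7989 (7333 to 8688, 14 cells) in the Sca- control and 6759 (5621 to 8058, 4 cells) in the Sca- knockout. Monocyte-like cells of the Sca- gate stood at 3909 CPM (3783 to 4038, 169 cells) in the control and 1445 (1381 to 1511, 119 cells) in the knockout. The 6 and 12 monocyte-like cells of the Sca+ gate stood at 2565 and 2709 CPM. Stem and progenitor-like cells of the Sca+ gate, identified by genes such as Hlf, Mecom and Procr, held 1256 CPM (1220 to 1293, 558 cells) in the control and 1237 (1212 to 1263, 1344 cells) in the knockout. Plasma cell-like cells held 1134 CPM (1062 to 1211, 109 cells) and 1178 (1121 to 1238, 167 cells). Granulocyte precursor-like cells of the Sca- gate were lowest among these classes, at 249 CPM (221 to 279, 75 cells) and 296 (278 to 315, 207 cells). The intervals of the 4 plasmacytoid dendritic cell-like sums overlapped in part. The interval of knockout plasma cell-like cells overlapped those of progenitor-like cells under both labels. The monocyte-like and granulocyte precursor-like class sums stood apart from the other classes named here. Single monocyte-like clusters need not: in the Sca- knockout cluster 7 stood at 3322 CPM and cluster 11 at 843, below the progenitor-like sums.

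**Figure D1:**
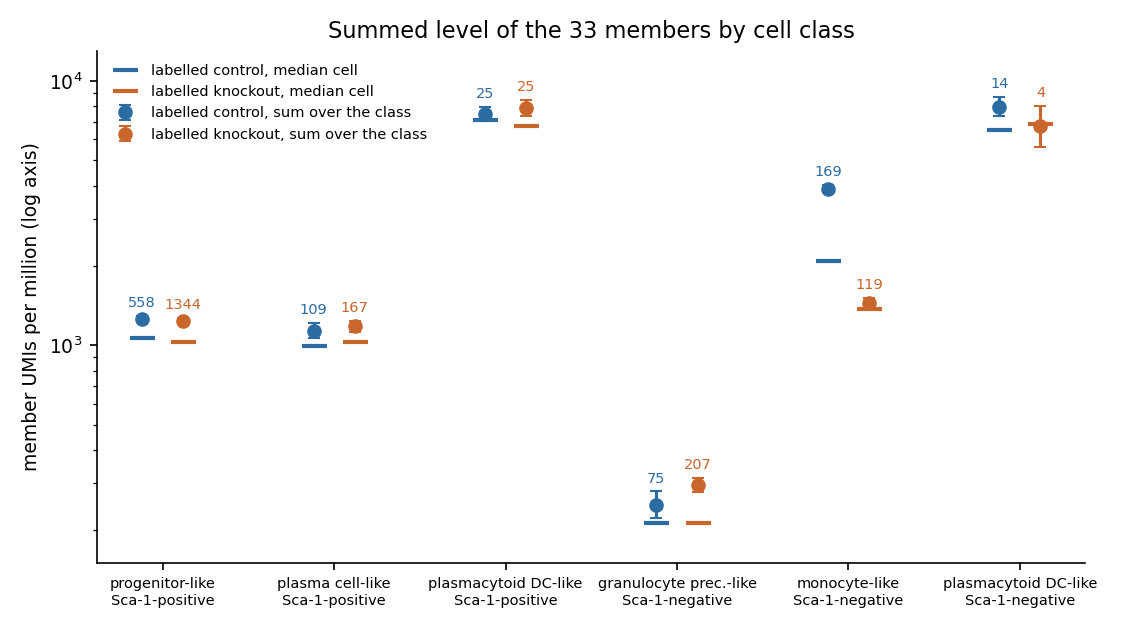
Summed level of the 33 members in 6 class and gate pairs, in CPM on a log axis, for the labelled control (blue) and labelled knockout (orange); points are sums over all cells of the class with exact 95% Poisson intervals, bars are the median cell and numbers are cells. In the monocyte-like pair the sums lie at 3909 and 1445 but the median cells at 2073 and 1367, and the gap between sum and median cell is widest in the labelled control.

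Different members made up these sums. Bst2, which encodes tetherin, a protein that holds budding virus particles on the cell, supplied 59.9% of the member UMIs of plasmacytoid dendritic cell-like cells in the Sca+ control and 68.6% in the knockout. Without Bst2 and Ifi27l2a those cells stood at 2263 and 1722 CPM. Ifi27l2a, a small interferon-induced membrane protein, supplied 40.4% and 51.6% of the member UMIs of the Sca- monocyte-like cells but 0.744% and 0.781% of those of progenitor-like cells. The progenitor-like cells were led by Bst2, at 171 and 168 CPM, and Ifi203, a nucleic acid sensor family gene, at 158 and 165 CPM. Ifi204, of the same family, was at 240 CPM in control monocyte-like cells and at 0.550 CPM, from 2 UMIs, in control progenitor-like cells.

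In stem and progenitor-like cells the summed level differed little between the labels. The ratio of knockout to control was 0.985 (0.950 to 1.02), and the median cell held 1063 and 1030 CPM. A member is counted as higher or lower when its level differs at least 1.5-fold, among members with at least 20 UMIs over both libraries, with 0.5 UMIs added to each sum. Of 31 such members 1 was higher and 3 were lower in the library labelled knockout, where 5.2% of all 11295 genes were higher and 3.2% lower. The median log2 ratio of the members was -0.03, and that of all genes -0.04. None of the 4 sensors, 4 transcription factors, 5 modifiers and 6 other induced genes passed that fold, so the calls were all among the 12 effectors. Rsad2, the antiviral enzyme viperin, had 60 UMIs in 47 control cells and 187 in 157 knockout cells, or 16.5 and 26.2 CPM, a ratio of 1.59 (1.18 to 2.16). Oas3, which makes the messenger that activates RNase L, was at 16.2 and 10.8 CPM, a ratio of 0.664 (0.467 to 0.949). Oasl1, a relative of the OAS enzymes, had 24 and 31 UMIs, with an interval of the ratio from 0.374 to 1.17 that includes 1. Ifit3, of the family that binds viral RNA, had 29 and 30 UMIs, a ratio of 0.527 (0.305 to 0.909), and 18 of the 29 control UMIs came from 1 cell.

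The 4 progenitor-like clusters had nearly the same levels under both labels: 1235 and 1272 CPM in cluster 0, 1113 and 1151 in cluster 1, 1415 and 1451 in cluster 2 and 1106 and 1091 in cluster 3. Cluster 2, whose leading genes were Iigp1, an interferon-inducible GTPase, and Pdzk1ip1, was the highest in each library. The listed interferon genes took no part in the clustering. Genes off the lists that move with the response may have done so, and the clusters were not shown to be independent of it. The other pathway genes were also close to even, where 5.2% of all genes were higher and 3.2% lower. Of the genes with at least 20 UMIs, none of 7 receptor and kinase genes, 7 negative regulators, 10 genes of the nucleic acid sensing route and 33 further type I targets passed 1.5-fold in either direction, and 1 of 16 interferon gamma targets, Gbp9, was higher (14 and 45 UMIs, ratio 1.64, 0.882 to 3.23).

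Plasma cell-like cells of the Sca+ gate, which secrete antibody, had a summed ratio of 1.04 (0.957 to 1.13) and median cells of 989 and 1023 CPM. Of 16 measured members 2 were higher in the library labelled knockout and 0 lower, where 17.3% of all genes were higher and 5.45% lower. Ifi27l2a had 131 UMIs in 60 control cells and 361 in 101 knockout cells, or 164 and 272 CPM, a ratio of 1.66 (1.36 to 2.04). Parp14, an ADP-ribosyltransferase, had 6 and 18 UMIs, with an interval of the ratio from 0.687 to 5.56. Bst2 went the other way, at 487 and 376 CPM (ratio 0.771, 0.674 to 0.882), short of the fold. The members' median log2 ratio was 0.18 beside 0.14 for all genes.

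In the 25 and 25 plasmacytoid dendritic cell-like cells of the Sca+ gate, 7 members could be measured. None was higher and 1 was lower, where 14.5% of all genes were higher and 9.13% lower. That member was Irf7, the transcription factor that drives interferon alpha genes, with 86 UMIs in 20 control cells and 34 in 13 knockout cells, or 660 and 333 CPM (ratio 0.504, 0.329 to 0.758). The summed ratio was 1.05 (0.954 to 1.15), and it was 0.934 without the doublet-marked cell. In the Sca- gate 14 and 4 such cells had sums whose ratio was 0.846, with an interval from 0.690 to 1.03 that includes 1.

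In granulocyte precursor-like cells, which carry the azurophil granule genes Elane and Mpo or the later genes Ngp and Camp, the members were scarce under both labels. The summed ratio was 1.19 (1.04 to 1.36), while the median cell was at 212 CPM in each library. Of 18 measured members 4 were higher in the library labelled knockout (Ifih1, Dhx58, Isg15 and Ifi27l2a) and 2 lower (Cmpk2 and Ifi204), where 8.55% of all genes were higher and 10.1% lower. Only Ifi27l2a among these 6 had an interval clear of 1, with 28 UMIs in 21 of 75 control cells and 156 in 19 of 207 knockout cells (23.6 and 46.2 CPM, ratio 1.95, 1.30 to 3.04). The share of cells with a UMI of it thus went against its CPM. The 3 knockout cells with the most member UMIs held 17.5% of all member UMIs of that group and 1.85% of its UMIs. Without the top 10% of cells by member share in each library the summed log2 ratio was 0.03 in place of 0.25, and it fell below 0 under 4 other choices, so no direction is given for these cells.

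The largest difference between labels in the class comparisons was in the monocyte-like cells of the Sca- gate. Their summed level was 0.370 times (0.350 to 0.391) as high in the library labelled knockout. Of 30 measured members 27 were lower and 0 higher, where 18.3% of all 7286 genes were lower and 18.1% higher. The members' median log2 ratio was -1.88, also with the 2 members listed at 0 UMIs taken at their bounds, beside 0.01 for all genes. All 4 sensors, 3 of 4 transcription factors, 10 of 11 effectors, 4 of 5 modifiers and 6 of 6 other induced genes were lower. The cells under the 2 labels were not alike in other ways: cluster 7 held 113 of the control cells and 54 of the knockout cells, cluster 11 held 15 and 60, and cluster 14 held 41 and 5. Cluster 7 was led by Fn1 and Ccr2, cluster 11 by Chil3 and F13a1 together with the cell division gene Ccnb1, and cluster 14 by Ear2 and Fcgr4. Median depth was 5412 and 10063 UMIs. All 15 monocyte markers had UMIs under both labels, summing to 51348 and 32036 CPM, and all 14 granulocyte precursor markers did so as well, at 6938 and 11472 CPM. Plasmacytoid dendritic cell markers, 9 and 8 of 13 with a UMI, summed to 331 and 730 CPM, of which Irf8 alone gave 245 of 309 and 911 of 979 UMIs, while Siglech had 1 and 0 UMIs and Ccr9 and Klk1 had 0. Macrophage markers, 8 and 9 of 11 with a UMI, summed to 146 and 75.3 CPM, mostly Adgre1 with 120 and 77 UMIs. The part of these shifts in the difference was not tested by the class sums, and levels within clusters 7 and 11 are given further on. Cluster 14, at 1102 CPM (910 to 1322) in the control, had 5 knockout cells and is not compared between labels.

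Among the sensors, Ifih1, the receptor MDA5 for long double-stranded RNA, had 39 and 9 UMIs in the control and knockout libraries, a ratio of 0.161 (0.0685 to 0.337). Ddx58, the receptor RIG-I, had 30 and 7 UMIs (ratio 0.163) and Dhx58, their relative LGP2, 35 and 11 (ratio 0.219). Zbp1, a sensor of left-handed nucleic acid, was the most abundant of the 4, with 155 and 60 UMIs or 166 and 44.7 CPM. All 4 intervals lay below 1.

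Among the transcription factors, Irf7 had 171 UMIs in 46 control cells and 42 in 23 knockout cells, or 183 and 31.3 CPM, a ratio of 0.171 (0.119 to 0.241). Irf1 was at 41.7 and 12.7 CPM (ratio 0.304) and Stat2 at 27.8 and 7.46 CPM (ratio 0.268). Irf9, their DNA-binding partner, did not pass the fold, at 40.7 and 51.4 CPM (ratio 1.27, 0.840 to 1.93).

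The antiviral effectors held the widest gaps. Ifit1 (chr19:34640871-34650009, plus strand, GENCODE M21 on GRCm38) had 48 UMIs in 13 control cells and 0 in the knockout cells, at least 23.0-fold lower when 3 UMIs per library are taken as the floor. Its neighbour Ifit3 (chr19:34583531-34588731) had 70 UMIs in 13 control cells and 0 in the knockout cells, at least 33.5-fold lower. Ifit2 (chr19:34550694-34576419) had 45 and 3 UMIs, a ratio of 0.0465 (0.00923 to 0.145). These genes block the translation of foreign RNA, and Ifit1, Ifit3 and Oas1a have near copies in the mouse genome between which reads may be split. Ifit3b, the copy of Ifit3, had 21 and 0 UMIs, at least 10.0-fold lower. Rsad2 had 40 UMIs in 14 control cells and 2 in 1 knockout cell, a ratio of 0.0348 (0.00408 to 0.134). Oasl2 had 82 and 10 UMIs (ratio 0.0850), Oas1a 54 and 18 (0.232), Oas3 25 and 6 (0.167) and the antiviral GTPase Mx1 29 and 11 (0.264). Eif2ak2, the kinase PKR, and Bst2 were less far apart, at ratios of 0.494 (0.273 to 0.882) and 0.598 (0.488 to 0.733). Cmpk2, a nucleotide kinase, was even at 21.4 and 23.9 CPM. The fold bounds of Ifit1, Ifit3 and Ifit3b are for the class sums only, whose mix of clusters differed between labels. In cluster 7 alone Ifit1 had 43 and 0 UMIs and Ifit3 had 64 and 0. The exact upper limits of their ratios were 0.180 and 0.119 there, against 0.0557 and 0.0377 over the class.

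Among the modifiers, Isg15 (chr4:156199424-156200818, minus strand), a ubiquitin-like protein, had 164 UMIs in 30 control cells and 10 in 5 knockout cells, or 175 and 7.46 CPM, a ratio of 0.0425 (0.0200 to 0.0801). Usp18, which removes ISG15 and damps the receptor, had 52 and 11 UMIs (ratio 0.147, 0.0693 to 0.286). Trim30a and Parp14 had ratios of 0.595 and 0.405, and Parp9 was at 24.6 and 18.6 CPM, short of the fold. Of the other induced genes, Rtp4, a chaperone-like protein, had 113 and 12 UMIs (ratio 0.0740, 0.0371 to 0.134) and Ifi204 had 224 and 92 (0.286, 0.222 to 0.366). Xaf1, Lgals3bp and Ifi203 had ratios of 0.319, 0.323 and 0.564. Ifi27l2a, by far the most abundant member here, had 1475 UMIs in 123 control cells and 1000 in 83 knockout cells, or 1578 and 746 CPM, a ratio of 0.472 (0.436 to 0.512).

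**Figure D2:**
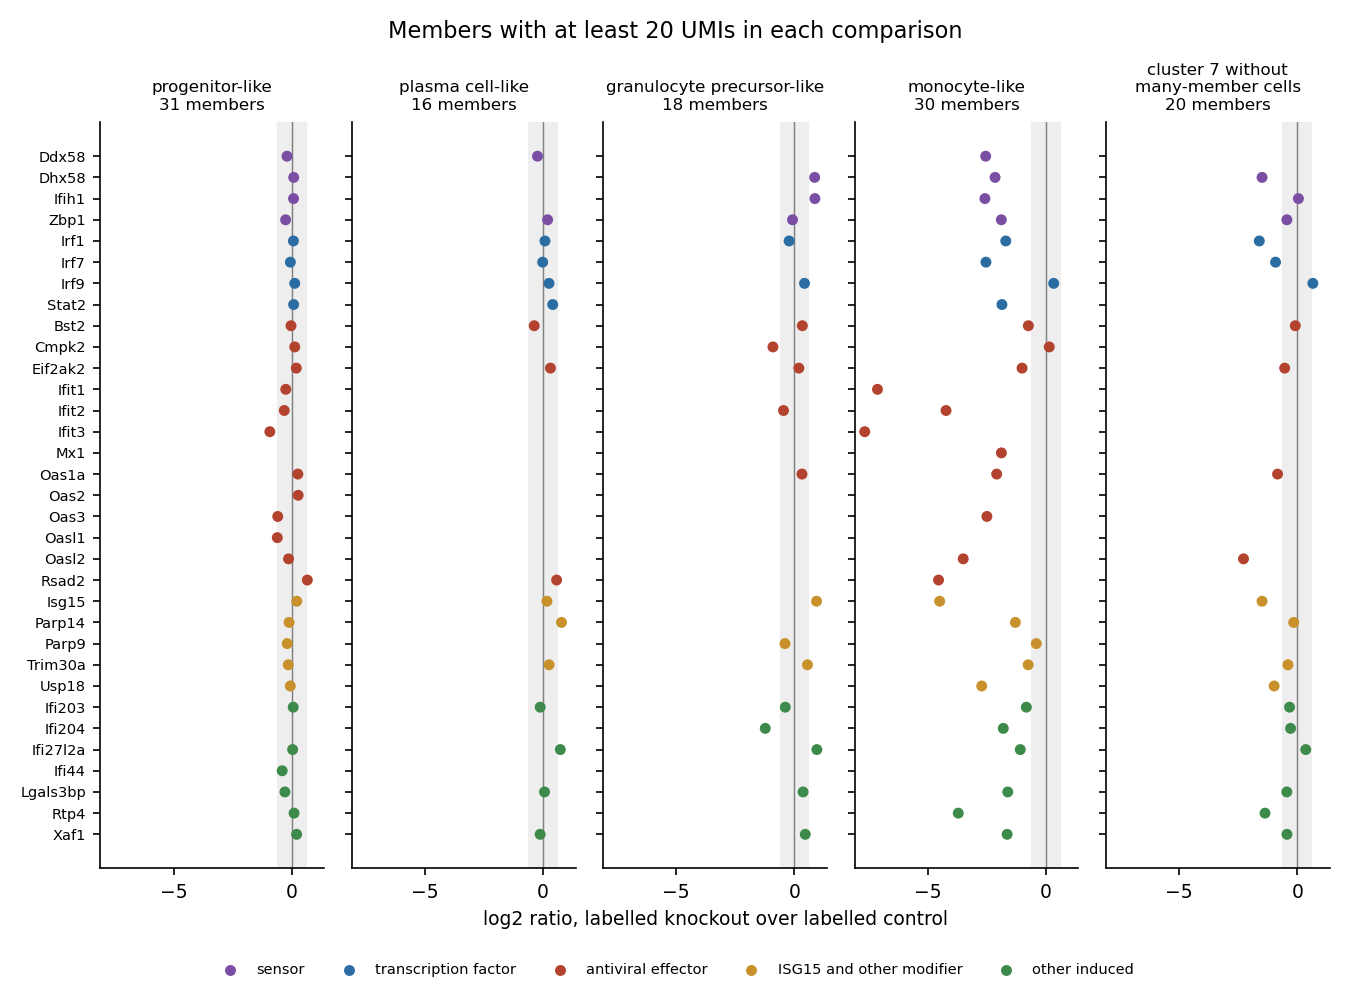
Log2 ratio of labelled knockout to labelled control for each member with at least 20 UMIs, in 5 comparisons, coloured by role; the grey band is the range within 1.5-fold. In monocyte-like cells 27 of 30 points lie left of the band, in progenitor-like cells 27 of 31 lie inside it; Ifit1 and Ifit3 have 0 knockout monocyte-like UMIs and their points depend on the 0.5 UMIs added.

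The other genes of the pathway in monocyte-like cells did not all move with the members. Of 37 further type I targets 30 were lower and 0 higher (median log2 ratio -1.08), and of 9 interferon gamma targets 6 were lower. Of 7 receptor and kinase genes 3 were lower and 1 higher: the receptor gene Ifnar1 was at 36.4 and 29.8 CPM (ratio 0.820, 0.506 to 1.34), Ifnar2 at 138 and 119 CPM (ratio 0.859, 0.677 to 1.09) and Jak1 at 83.5 and 44.7 CPM (ratio 0.536, 0.376 to 0.760). Irf8, a transcription factor that directs monocyte and dendritic cell development, was at 262 and 679 CPM (ratio 2.59, 2.25 to 3.0). Of the negative regulators 2 of 6 and of the sensing route 2 of 9 were lower, and none was higher. Over all 7286 genes in this comparison 18.3% were lower and 18.1% higher. The counts of these 2 short lists are therefore not read as a result about them.

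The UMIs of several members were held by few cells. In the control, Ifit1 and Ifit3 each had a UMI in 13 of 169 monocyte-like cells (7.69%, 4.16 to 12.8), and in the knockout in 0 of 119. A count of 0 is taken to allow 3 cells, here a share with a UMI of up to 2.52%, and the exact upper limit is 3.05%. Granulocyte precursor-like cells, which hold few interferon transcripts, had a median depth of 15387 and 16040 UMIs. Among them Ifit1 was seen in 0 of 75 and 1 of 207 cells and Ifit3 in 2 of 75 and 0 of 207. Free RNA was not measured, so it cannot be told apart from RNA of the cells themselves. With every cell thinned to 2000 UMIs, Ifit3 was seen in 9 of the 169 control monocyte-like cells. Isg15 was seen in 17.8% of control and 4.2% of knockout monocyte-like cells, or 12.4% and 0.840% after thinning, and in 5.33% and 9.18% of granulocyte precursor-like cells, or 1.33% and 1.45% after thinning. The interval of the unthinned share in knockout monocyte-like cells ran from 1.38% to 9.53%. It overlapped those of control and knockout granulocyte precursor-like cells, whose lower limits were 1.47% and 5.62%. After thinning, these 3 shares rested on 1, 1 and 3 cells. The Isg15 shares of knockout monocyte-like and granulocyte precursor-like cells therefore cannot be told apart. Ifi27l2a, in contrast, was seen in 72.8% of control and 69.7% of knockout monocyte-like cells, or 65.7% and 61.3% after thinning.

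The top 10% of monocyte-like cells by member UMIs, 17 cells, held 49.5% of the control's member UMIs and 12.9% of all its UMIs. In the knockout the top 12 cells held 30.3% of the member UMIs and 9.47% of all UMIs. After thinning these shares were 44.7% and 33.2%. In progenitor-like cells the top 10% held 27.4% and 29.0% of the member UMIs, in plasma cell-like cells 24.8% and 30.4%, and in granulocyte precursor-like cells 28.5% and 37.8%. The variance of thinned member UMIs over cells was 13.3 times their mean in control and 4.26 times in knockout monocyte-like cells, against 2.54 and 2.30 times in progenitor-like cells.

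Counting how many different members a cell showed set a small group apart. In the control 11 of 169 monocyte-like cells (6.51%, 3.29 to 11.3) had UMIs of at least 20 members, with 21 to 30 each. The next cell had 17, and 2 control cells lay between 15 and 19. In the knockout 1 of 119 cells (0.840%, 0.0213 to 4.59) reached 20 members, and 1 more lay between 15 and 19. The cut at 20 was chosen after the values were seen, so these many-member cells are a range and not a type. The 11 cells held 12046 to 24896 CPM of member UMIs, with a median of 17514, where the median of the other control cells was 1932. Their depth was ordinary, at 4739 to 20571 UMIs with a median of 5728, beside 5386 in the other cells. Monocyte markers summed to 50509 CPM in them and to 51429 CPM in the others, granulocyte precursor markers to 4579 and 7165 CPM, macrophage markers to 195 and 141 CPM and plasmacytoid dendritic cell markers to 562 and 308 CPM. Of the last list Irf8 and Tcf4 gave 33 and 11 UMIs in the many-member cells, and the defining genes Siglech, Ccr9 and Klk1 gave 0; the part of these markers in the member levels was not tested. None was marked as a doublet, 9 had Y-linked UMIs and no Xist (the mark of male cells), 1 had Xist only and 1 neither. Among all 169 control monocyte-like cells 76 had Y-linked UMIs and no Xist and 22 had Xist only, so Y-linked cells were also the larger group there. Of the 11, 10 lay in cluster 7 and 1 in cluster 11. After thinning to 2000 UMIs, 11 of 169 control and 1 of 119 knockout cells still showed at least 10 members.

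**Figure D3:**
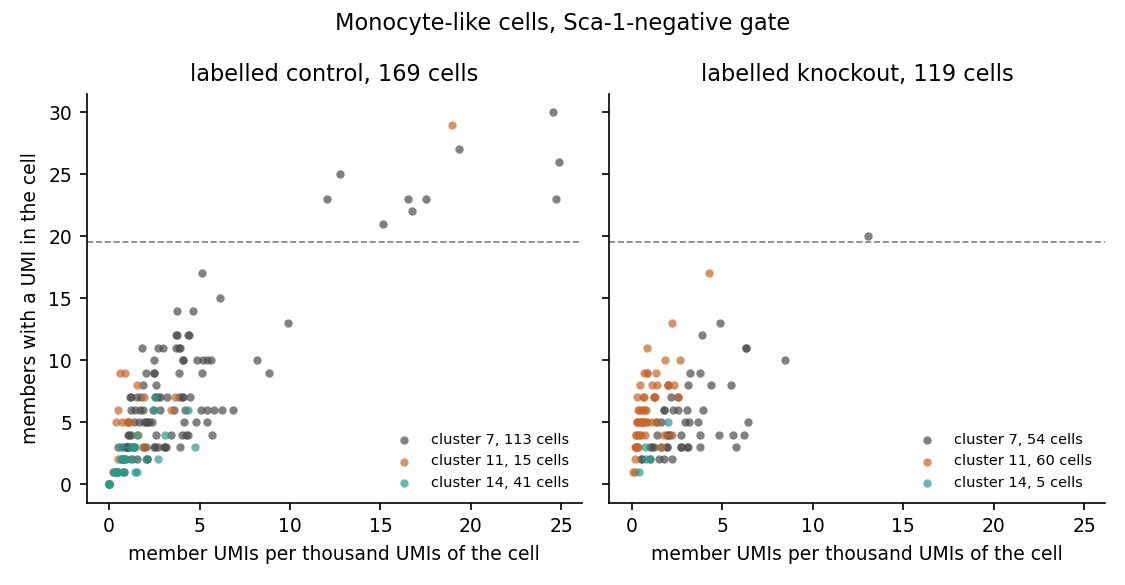
Each point is 1 monocyte-like cell of the Sca- gate, labelled control (left, 169 cells) and labelled knockout (right, 119 cells), with its member UMIs per 1000 UMIs across and the number of members with a UMI upward; colours are clusters and the dashed line is the cut at 20 members. In the control 11 cells lie above the line, well to the right of most others, and in the knockout 1 cell does.

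These 11 cells held 8.76% of all UMIs of the control monocyte-like cells and 41.9% of the member UMIs. For 14 of the 30 measured members they held more than 50% of the UMIs, and for 3 more than 90%: 97.1% for Ifit3, 95.6% for Ifit2 and 93.8% for Ifit1. The share was 87.5% for Rsad2, 84.8% for Isg15, 73.1% for Stat2, 69.2% for Usp18 and 64.3% for Irf7. At the other end it was 24.7% for Ifi27l2a, 20.5% for Irf1 and 18.4% for Irf9. The Ifit1, Ifit2 and Ifit3 UMIs that set the control apart from the knockout lay almost wholly in these cells. UMIs of Ifi27l2a, Irf1 and Irf9 were spread over many cells. Since the cells were picked by the number of members they showed, high shares follow in part from that choice. The shares are a description.

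**Figure D4:**
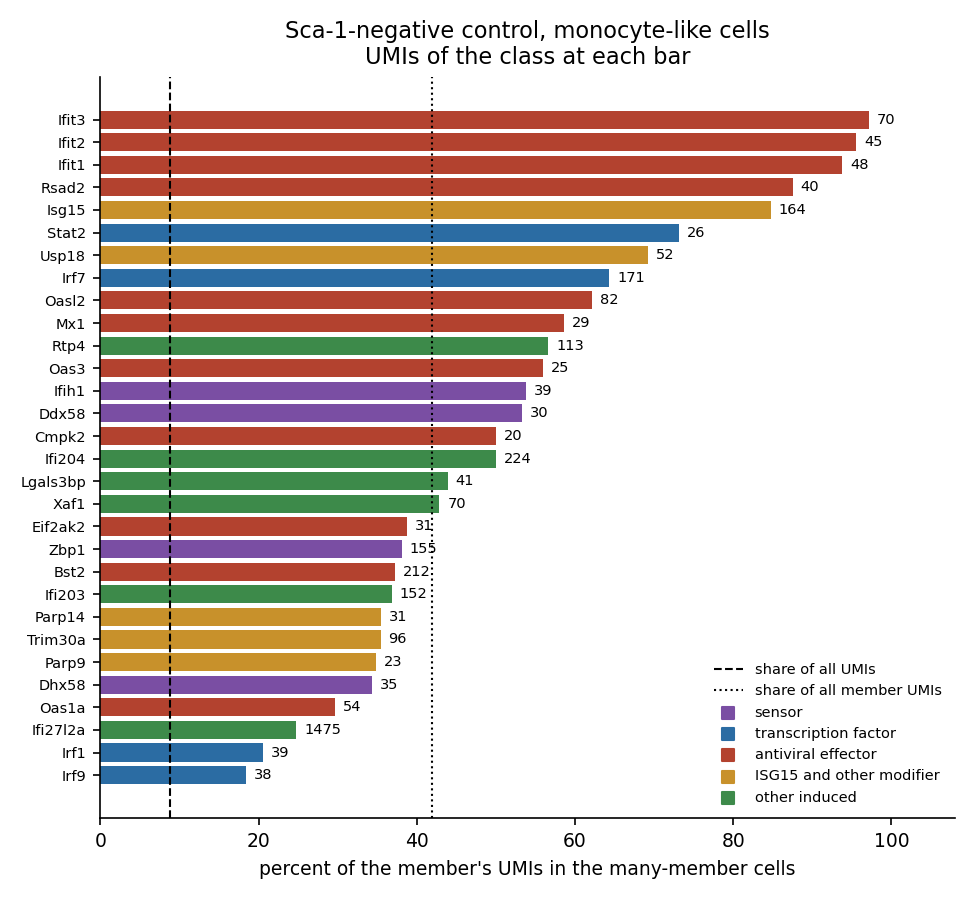
Percent of each member's UMIs in control monocyte-like cells that lay in the 11 many-member cells, for the 30 measured members, coloured by role; numbers at the bars are the UMIs of the class, the dashed line is the share of all UMIs (8.76%) and the dotted line that of all member UMIs (41.9%). The Ifit genes reach over 90% and Irf9 is lowest at 18.4%. The cells were picked by these same members.

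Against the other 158 control monocyte-like cells, the many-member cells had all 30 measured members higher, where 21% of all genes were higher and 23.2% lower. Since the cells were picked by these genes, that count is a description. Genes outside the member list moved too: of the 20 genes with the largest ratio 9 were members, 7 stood on the other pathway lists and 4 on neither, namely Ifi205, Ifi47, Fgl2 and Ly6a. Ly6a, which encodes the Sca-1 protein used in the sort, had 17 UMIs in the many-member cells and 11 in the others. Of 31 further type I targets 30 were higher. Cxcl10, a chemokine that attracts T cells, had 35 UMIs in the many-member cells and 1 in the others. All 8 measured interferon gamma targets were higher. Of the 5 measured receptor and kinase genes 1 was higher and 1 lower.

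The many-member cells were picked by the members themselves, and 11 were control and 1 knockout cells. Leaving them out thus lowers the control more by construction. With them left out of both libraries the difference was narrower. The control then stood at 2487 CPM and the knockout at 1386, a ratio of 0.557 (0.523 to 0.593). Of 24 members still measured 17 were lower and 1 higher (Cmpk2, 11.7 and 24.0 CPM), where 17.6% of all genes were lower and 17.8% higher. Within cluster 7, where depth was alike at 5759 and 5910 UMIs, all cells together gave 4532 and 3322 CPM, a ratio of 0.733 (0.683 to 0.786), with 23 of 30 members lower and 1 higher (Irf9), where 11.5% of all genes were lower and 9.53% higher. Within cluster 7 and without the many-member cells the sums were 3074 and 3114 CPM, a ratio of 1.01 (0.937 to 1.10). Most of those UMIs were Ifi27l2a, at 1627 and 2088 CPM, and without it the ratio was 0.709, a log2 ratio of -0.50 (-0.69 to -0.31).

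Single members within cluster 7 and outside the many-member cells were uneven. Of 20 measured 8 were lower and 1 higher (Irf9), where 11.4% of all genes were lower and 9.66% higher, with a median log2 ratio of -0.44. For 6 of the 8 the interval lay below 1: Oasl2 with 31 and 3 UMIs (ratio 0.180, 0.0353 to 0.578), Rtp4 with 45 and 9 (0.373, 0.160 to 0.772), Irf1 with 25 and 4 (0.298, 0.0754 to 0.863), Irf7 with 54 and 15 (0.518, 0.271 to 0.931), and both Isg15 and Dhx58 with 23 and 4 (0.324, 0.0815 to 0.948). The intervals of Usp18 and Oas1a included 1. Ifi204, Ifi203, Zbp1 and Bst2 had ratios of 0.818, 0.792, 0.731 and 0.941, and none of their intervals excluded 1. In cluster 11 the summed log2 ratio was -1.95 with its 1 many-member control cell and -0.49 (-0.73 to -0.26) without it.

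**Figure D5:**
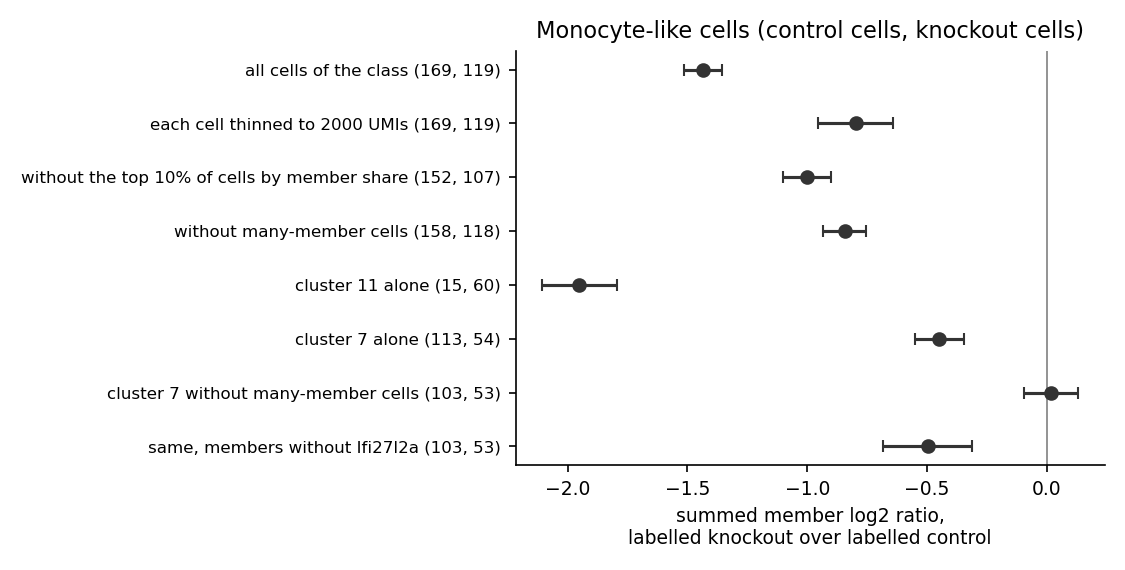
Summed member log2 ratio of labelled knockout to labelled control in Sca- monocyte-like cells under 8 ways of choosing cells or members, with exact 95% counting intervals; numbers in brackets are control and knockout cells. The ratio runs from -1.95 in cluster 11 to 0.02 in cluster 7 without many-member cells, and is -0.50 when Ifi27l2a is left out of that last sum.

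Cells with UMIs of at least 20 members were few in number in the other classes under both labels, several of which were small. There were 2 of 558 control and 2 of 1344 knockout progenitor-like cells. Each Sca+ library had 1 of 25 plasmacytoid dendritic cell-like cells (4%, 0.101 to 20.4), of which the knockout cell was marked as a doublet. The Sca- control had 1 of 8 B lymphoid-like cells (12.5%, 0.316 to 52.7). The intervals of these 2 small classes include the 6.51% of control monocyte-like cells, so their shares cannot be told apart from it. Plasma cell-like cells showed 0 of 109 and 0 of 167, with exact upper limits of 3.33% and 2.18%, and granulocyte precursor-like cells 0 of 75 and 0 of 207, with exact upper limits of 4.80% and 1.77%. The unnamed clusters of the Sca+ gate held 2 of 80 and 1 of 228.

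Transcripts of the ligands were close to none. The 18 type I interferon genes together had 0 and 3 UMIs in the Sca+ control and knockout and 1 and 0 in the Sca- control and knockout. The 3 were of Ifnz, and the 1 was of Ifnb1, the interferon beta gene, in a many-member monocyte-like cell. Ifng, the type II interferon gene, had 1, 18, 5 and 0 UMIs in the same order.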

How the data were processed

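Single-cell RNA was measured in 4 libraries, 1 per group. Cell Ranger, Seurat and the build mm10 stand in the submitters' processing notes, without versions. The authors deposited matrices whose values are whole-number UMI counts per gene and cell, not normalized. Library totals ran from 3234772 to 11065352 UMIs. Barcodes with fewer than 200 genes, or with 10% or more of UMIs from mitochondrial genes, were dropped (74 of 3641). Counts were scaled to 10000 per cell and log-transformed. From these, 2000 variable genes without the listed interferon genes gave 30 components, 15 neighbours and Leiden clusters at resolution 1 (scanpy 1.11.5, leidenalg 0.10.2). Of 20 clusters 17 were named from fixed marker lists, on at least 3 detected markers; names rebuilt in this way may differ from the study's. UMIs of the members were then summed per library and class (CPM, UMIs scaled to a total of 1000000), with exact Poisson, conditional binomial or Clopper-Pearson intervals (scipy 1.17.1), which cover counting error only. A member is named where its ratio passes 1.5-fold with an interval clear of 1, together with the 6 of most UMIs per class; members counted past the fold with an interval that includes 1 are also named where they are few, as are those short of the fold that a sentence singles out, chosen after their values were seen. Scrublet, a doublet caller within scanpy, marked 1, 3, 5 and 6 cells in the Sca+ control, Sca+ knockout, Sca- control and Sca- knockout. The few marks in the Sca+ gate may mean that it did not work there, which was not tested. In every library a cell without a mark may still be a doublet. Marked cells were kept. Xist together with Y-linked UMIs, a further sign of mixed cells, was seen in 18, 28, 9 and 14 cells. Members, lists and alternatives were chosen with earlier results of these data known. The scripts were tested on simulated data. The list of signalling transcription factors is not reported here as a whole.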

Additional observations from a re-analysis of the deposited data

Results flagged for a closer look

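In the Sca- gate the summed level of the members lay on opposite sides of even in 2 cell classes under the same contrast of labelled knockout and labelled control: the log2 ratio was -1.44 in monocyte-like cells and 0.25 in granulocyte precursor-like cells. With 1 library per group the difference between the classes was not tested. The granulocyte precursor-like direction turned under 4 of 14 alternatives, and without the top 10% of cells by member share it was 0.035.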

How the results depend on the processing

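All values here are summed log2 ratios of labelled knockout to control unless called counts. In granulocyte precursor-like cells (0.25) the sign turned with a stricter cell filter (-0.13), with Leiden resolution 0.5 or with the interferon genes kept in clustering (-0.16 in both) and in Xist-only cells (-0.32), and the ratio was 0.035 without the top 10% of cells; the first 3 of these left 25 or 26 control cells in the class. In monocyte-like cells (-1.44) the ratio was -2.10 with the stricter filter, -1.57 at resolution 0.5, -0.47 with the interferon genes kept, when cluster 11 lost its name, -0.80 thinned, -1.68 in Xist-only and -1.94 in Y-only cells, and -1.0 without the top 10% of cells. Alternatives chosen after seeing the data gave -0.84 without many-member cells, -1.74 without Ifi27l2a, -0.45 in cluster 7, -1.95 in cluster 11, 0.019 in cluster 7 without many-member cells, -0.50 there without Ifi27l2a, and -0.49 in cluster 11 without its many-member cell. In progenitor-like cells (-0.02) it was -0.18 in Xist-only cells. In plasma cell-like cells (0.05) it was -0.10 with median-of-ratios factors or without Ifi27l2a, -0.067 with immunoglobulin, ribosomal protein and mitochondrial genes left out of the total, 0.27 in Xist-only and 0.20 in Y-only cells. In Sca+ plasmacytoid dendritic cell-like cells (0.07) it was -0.12 with the stricter filter, -0.14 thinned, -0.10 without doublet-marked cells and -0.20 in Y-only cells; in the Sca- gate (-0.24) it was 0.078 without the top 10% of cells. The count of members past 1.5-fold was 2 in place of 4 in progenitor-like cells with median-of-ratios factors. In plasma cell-like cells it was 11 with at least 5 UMIs, 1 with at least 50 and 1 with median-of-ratios factors, in place of 2. With at least 50 UMIs it was 1 in place of 6 in granulocyte precursor-like and 17 in place of 27 in monocyte-like cells. Where no construction is named, the cause was not tested. Too few cells were left for Xist-only Sca+ and for strictly filtered, Xist-only or Y-only Sca- plasmacytoid dendritic cell-like values. No paired analysis was possible because each group has 1 library and no result comes from a test. Depth limits the members under 20 UMIs, which are not called.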
